A study of Mus musculus with 9 samples.

Results

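The comparison set 1 bladder array against another of the same experiment: the array labelled healthy, 17 mM, 24 h, and the array of a sham-treated tumour bladder. They are 2 of the 9 arrays of the series and were chosen by their labels, with no measured value. Per the labels, the first was a bladder of a healthy female C57BL/6J mouse, with 17 mM alpha1-oleate, a peptide complexed to the fatty acid oleate, as the agent and 24 h as the time of sacrifice. The second came from a female of the same strain whose bladder was preconditioned with poly-L-lysine and seeded with MB49 cells, a mouse bladder carcinoma line, on day 0, then sham-treated with PBS and taken on day 12. Bladder labelled healthy with 17 mM alpha1-oleate and a sacrifice time of 7 d, and healthy bladder given PBS, both from female C57BL/6J, complete experiment 2 (4 arrays). From experiment 1, a tumour bladder instilled repeatedly with 17 mM between day 3 and day 11, a sham tumour and a healthy PBS bladder were used as well. No label gives the age of the mice, or says how many bladders an array stands for. The values are log2 RMA intensities, a scale on which a difference of 1 is 2-fold.

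The lining of the bladder, the urothelium, is built from basal cells that carry keratin 5 and p63 and from superficial umbrella cells that carry uroplakin plaques. It lies on a collagen-rich lamina propria and on the detrusor, a layer of smooth muscle. A growing tumour adds dividing carcinoma cells and the leukocytes they attract, and displaces the wall it grows in. In whole-bladder RNA, fewer cells of a type and less RNA per cell cannot be told apart.

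Each side had 1 array, so the differences have no replicate check and are described. Readings under 4.16 log2, the level of the expression filter, may be background, and a difference that rests on one is approximate. A gene was counted as higher or lower at 2-fold. On this rule, 1484 of 11969 genes (12.4%) were higher on the array labelled 24 h than in the sham tumour and 908 (7.59%) were lower, with a median difference of -0.04 over all genes. The best measure of spread is how far the sham tumour minus healthy difference moved between the experiments: 1.64% of genes moved by 2-fold or more, and the SD of that gap over genes was 0.337. Of the higher genes 1480 differed by more than their own gap, and of the lower genes 889 did. These counts lend little support, since the genes were already chosen at 2-fold and few gaps reach that size. The gap also includes the same sham array and holds no variation of the array labelled 24 h. Against the sham tumour of experiment 1, with each array first set against the healthy PBS array of its own experiment, 1292 of the 1484 and 752 of the 908 were again past 2-fold in the same direction.

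The array labelled 24 h carried transcripts that were high in the sham tumour and low in healthy PBS bladder. Of 124 genes at least 16-fold higher in the sham tumour than in the healthy bladder of experiment 1, 117 lay at least 2-fold above healthy PBS on the array labelled 24 h, and 5 did so on the array labelled 7 d. Over all 11969 genes, the shares 2-fold above and below healthy PBS were 4.83% and 0.284% for the array labelled 24 h, and 0.844% and 0.593% for the array labelled 7 d. Prkg2, a cGMP-dependent kinase, had 6.27 log2 on the array labelled 24 h, against 9.31 in the sham tumour and 3.21 in healthy PBS bladder. Top2a, the topoisomerase that untangles replicated DNA, had 7.59, against 9.82 in the sham tumour and 3.66 in healthy PBS bladder. On the array labelled 7 d Prkg2 read 3.29 and Top2a 3.93, close to healthy PBS. For both genes the array labelled 24 h stood between sham tumour and healthy bladder. How it came to carry them was not tested, and it is named by its label below.

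To ask which tumour features it shared, genes were picked on the arrays of experiment 1 alone, and their levels were then read on those of experiment 2. Among 701 genes at least 4-fold higher in the sham tumour of experiment 1, the array labelled 24 h was within 2-fold of the sham tumour and at least 2-fold above healthy PBS for 120 (17.1%). It lay between them, at least 2-fold from both, for 273 (38.9%). It was within 2-fold of healthy PBS and at least 2-fold below the sham tumour for 263 (37.5%), and within 2-fold of both for 43 (6.13%). The array labelled 7 d was with healthy PBS for 667 (95.1%) and with the sham tumour for 5 (0.713%). By these 2-fold classes, most of the loss of bladder wall transcripts was lacking. Of 656 genes at least 4-fold lower in the sham tumour of experiment 1, the array labelled 24 h was with healthy PBS for 605 (92.2%). It was between for 23 (3.51%) and with the sham tumour for 6 (0.915%). Of those 6, Aadat, an aminotransferase, had 4.12 log2, against 3.63 in the sham tumour and 5.77 in healthy bladder, and Hsd3b4, a steroid dehydrogenase, had 4.69, against 3.96 and 6.19. Both also read low on the array labelled 7 d, at 3.58 and 4.05. Shifts smaller than 2-fold do not show in these classes. Over the 656 tumour-low genes the median against healthy PBS was -0.56 on the array labelled 24 h and -0.06 on the array labelled 7 d. On the log2 scale their median place was 0.189 of the way from healthy bladder to sham tumour (quartiles 0.116 and 0.268). For tumour-high genes it was 0.433. Both places cover genes that the sham tumour of experiment 2 had shifted by 2-fold or more. On this scale the same linear shift counts for more in a low reading than in a high one. The 2 places therefore do not rank the sets, and their linear places were not compared. List places below are also on the log2 scale and are not shares of linear signal.

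**Figure D1:**
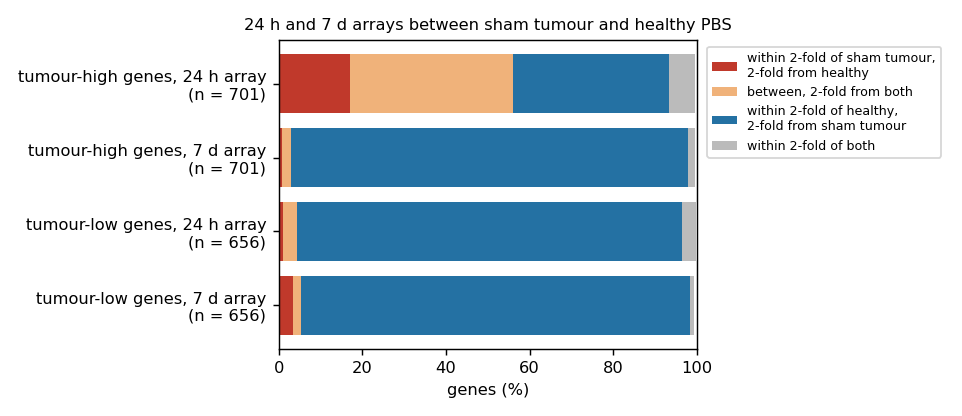
Share of tumour-high genes (701) and tumour-low genes (656), chosen at 4-fold in experiment 1, by where the arrays labelled 24 h and 7 d lie between sham tumour and healthy PBS of experiment 2. The horizontal axis is percent of genes, colours give the class, and the sliver left blank holds genes beyond either end. On the array labelled 24 h 17.1% of tumour-high genes sat with the sham tumour and 37.5% with healthy bladder, while 92.2% of tumour-low genes sat with healthy bladder.

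**Figure D2:**
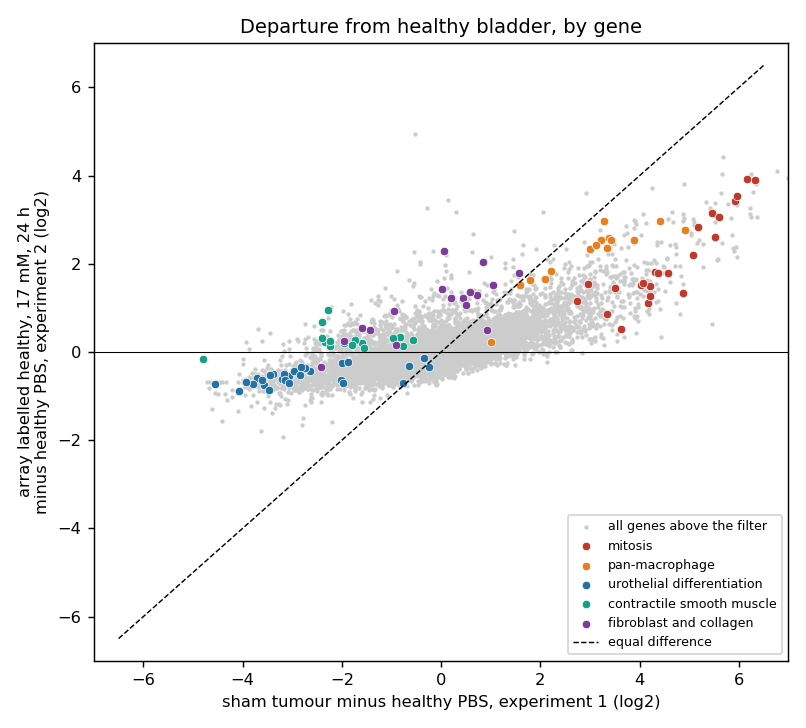
Each point is a gene: the horizontal axis is its sham tumour minus healthy PBS difference in experiment 1 and the vertical axis the array labelled 24 h minus healthy PBS in experiment 2, both in log2, with no array in common. Urothelial and smooth muscle genes lie near 0 on the vertical axis despite their loss in the tumour, mitosis genes lie well under the dashed line of equal difference, macrophage genes lie closer to it, and several collagen genes lie above it.

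Across all 11969 genes the departures from healthy bladder of the array labelled 24 h correlated with those of the experiment 1 sham tumour at r = 0.727, and those of the array labelled 7 d at 0.156. The sham tumour of experiment 2 gave 0.965 against that of experiment 1. The genes of a pair come from the same arrays, and genes are not independent replicates.

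The array labelled 24 h showed only a part of the tumour's loss of urothelial transcripts, under 2-fold for each gene of the list. Of 30 urothelial differentiation genes above the expression filter, 25 were at least 2-fold higher than in the sham tumour and 0 lower, with a median difference of 2.90 (-0.04 over all genes). Upk2, a plaque protein of umbrella cells, had 10.36 log2 on the array labelled 24 h, against 7.43 in the sham tumour and 10.86 in healthy PBS bladder. Upk3b had 9.83, against 6.08 and 10.71 in the same order. Upk3a, another uroplakin, was 3.66 higher than in the sham tumour. Umbrella cell keratin Krt20 had 8.48, against 5.15 in the sham tumour and 9.23 in healthy bladder, and Pparg, a regulator of urothelial differentiation, had 8.01, against 4.49 and 8.64. The tight-junction claudin Cldn8 was 4.50 higher than in the sham tumour (9.36 against 4.86), and the epithelial transcription factor Ehf 4.02 higher, although another of its probe sets read -0.03. All of these levels stood below healthy bladder: the list median was -0.54 against healthy PBS, with 0 of 30 genes 2-fold below it. In linear intensity the 30 genes summed to 33880 on the array labelled 24 h, against 8426 in the sham tumour and 46328 in healthy bladder. For the 26 genes that the sham tumour had shifted by 2-fold or more, the array labelled 24 h had moved a median of 14.9% of the way from healthy bladder to sham tumour on the log2 scale.

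Basal cell genes were split. Krt5 had 9.71 log2 on the array labelled 24 h, against 6.39 in the sham tumour and 10 in healthy bladder, and Trp63, the gene of p63, had 8.69, against 4.60 and 9.43. Averaged over its probe sets Trp63 was 1.42 higher than in the sham tumour, not 4.09. Krt15, another basal keratin, was 2.42 higher, and Shh, the hedgehog ligand of basal urothelium, 1.69 higher. Krt14, by contrast, had 7.20 log2, against 8.98 in the sham tumour and 3.59 in healthy bladder, so this basal keratin of the tumour was present at an intermediate level. The hyaluronan receptor Cd44 was likewise intermediate, with 9.78 against 11.36 in the sham tumour and 8.13 in healthy bladder. In all, 4 of 14 genes were higher and 4 lower than in the sham tumour. E-cadherin, encoded by Cdh1, had 9.53 log2, against 6.54 in the sham tumour and 9.87 in healthy bladder. Of the 10 cadherin and EMT genes above the filter, which include Cdh1, 2 were higher and 1 lower than in the sham tumour (median 0.41). Perp, a desmosome gene and p53 target, had 10.15, against 6.52 and 10.45. Among cornified envelope genes 5 of 11 were higher and 0 lower, led by involucrin, Ivl (10.35 against 7.00 in the sham tumour).

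Smooth muscle transcripts were not lost. All 17 contractile genes above the filter were at least 2-fold higher on the array labelled 24 h than in the sham tumour, with a median of 2.32, and none was 2-fold away from healthy PBS. Pcp4, a calmodulin-binding protein of detrusor and other tissues, was 6.37 higher than in the sham tumour, and 4.65 against that of experiment 1. It had 9.87 log2 on the array labelled 24 h, against 3.50 in the sham tumour, which is under the filter level, and 10.02 in healthy bladder. Pgm5, a protein of muscle adhesion sites, had 9.61, against 6.37 in the sham tumour and 9.29 in healthy bladder. Synpo2, an actin-binding protein, was 2.86 higher than in the sham tumour, and Myocd, the coactivator of smooth muscle genes, 2.65 higher. Acta2, the smooth muscle actin, had 12.44 against 11.12 in the sham tumour and 12.31 in healthy bladder. The Acta2 difference from the sham tumour, 1.32, was 0.90 against the sham tumour of experiment 1 and 0.81 by the mean of its probe sets, both under 2-fold. Of 8 striated muscle genes 3 were higher, with Ckm, muscle creatine kinase, at 3.03 (another probe set read -0.07). Of 6 adipose genes 5 were higher, with Fabp4 at 2.38 and Plin4 at 1.93.

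Macrophage transcripts were largely shared with the tumour. Of 15 pan-macrophage genes 0 were higher and 3 lower than in the sham tumour (median -0.56), while 14 were at least 2-fold above healthy PBS (median 2.43). Cd68, a lysosomal protein of macrophages, had 7.45 log2 on the array labelled 24 h, against 8.28 in the sham tumour and 4.86 in healthy bladder. Lyz2, a myeloid lysozyme, was the one gene above the sham tumour (10.83 against 10.63, and 9.19 in healthy bladder). Fcgr1, an IgG receptor, and Aif1, a calcium-binding protein of macrophages, read -1.13 and -1.32 against the sham tumour. For 14 genes the median place was 80.1% of the way from healthy bladder to sham tumour, with a range of 67.7% to 114%. The array labelled 7 d held part of this signal too, with a list median 0.77 above healthy PBS.

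Of the tumour-high genes within 2-fold of the sham tumour, the 8 with the largest differences in experiment 1 are given here. Ptprc, the pan-leukocyte phosphatase CD45, had 8.42 log2 on the array labelled 24 h, against 9.19 in the sham tumour and 5.44 in healthy bladder. Clec4n, a myeloid lectin, Fcgr4, an IgG receptor, Cd52, a lymphocyte and myeloid surface glycoprotein, Ms4a4b, a T cell membrane protein, and Ppbp, a platelet chemokine, were -0.91, -0.93, -0.96, -0.67 and -0.21 from the sham tumour. Timp1, the inhibitor of metalloproteases, had 8.61 against 9.41 in the sham tumour and 5.65 in healthy bladder. Among these 8 genes Apol7c completed the set at -0.42. Beyond the sham tumour lay Serpina3n, a protease inhibitor of the acute phase, with 10.15 log2, against 8.48 in the sham tumour and 6.97 in healthy bladder. Ccl8, a chemokine, Reg3g, an antibacterial lectin, and Saa3, an acute-phase protein, were 0.97, 0.96 and 0.93 above the sham tumour, within 2-fold of it.

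Resident-type macrophage genes were in part above the sham tumour. Of 9 genes 5 were at least 2-fold higher and 0 lower (median 1.03, and 0.77 against the sham tumour of experiment 1). Mrc1, of the same list, read -0.39 against the sham tumour. Cd163, a haemoglobin scavenger receptor, had 6.12 log2 on the array labelled 24 h, against 4.90 in the sham tumour and 4.55 in healthy bladder. Against the sham tumour of experiment 1 the Cd163 difference was 0.71, under 2-fold. F13a1, a transglutaminase of resident macrophages, had 8.64, against 7.37 and 7.36. Lyve1, which also marks lymphatic endothelium, had 7.26, against 4.69 in the sham tumour and 6.99 in healthy bladder. Cbr2, also expressed by other cells, was 3.04 higher than in the sham tumour. Genes of activated macrophages were mixed. Arg1, the arginase of activated macrophages, had 5.84, against 7.93 in the sham tumour and 3.18 in healthy bladder. Trem2 and Fabp5, of the same list, read 0.03 and 0.47 against the sham tumour. Of 11 activated macrophage genes 0 were higher, 5 lower and 6 within 2-fold (median -0.72, against -0.56 for pan-macrophage genes). The 7 that the sham tumour had shifted by 2-fold or more had a median place 40.3% of the way to it.

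**Figure D3:**
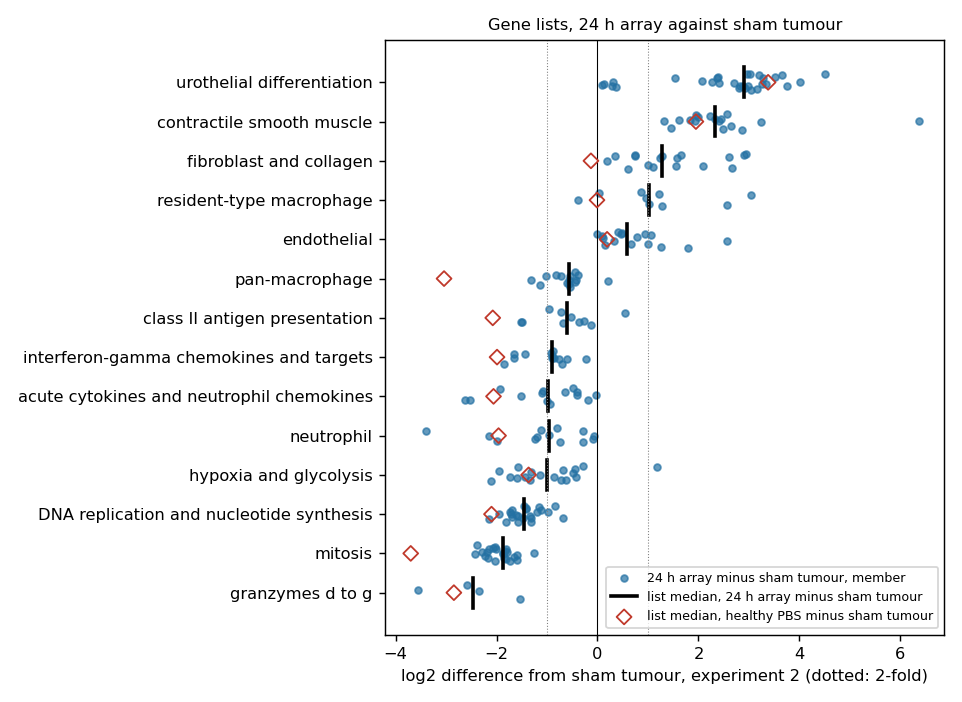
Difference between the array labelled 24 h and the sham tumour for each gene of 14 lists (points) with the list median (bar), on a log2 axis with dotted lines at 2-fold. Open diamonds give the median of healthy PBS minus sham tumour, so a bar on its diamond marks a list at its healthy level and a bar at 0 a list at its sham tumour level. The urothelial bar (2.90) lies near its diamond, the pan-macrophage bar (-0.56) near 0, and the mitosis bar (-1.88) midway.

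Proliferation was partly shared. All 23 mitosis genes were at least 2-fold lower on the array labelled 24 h than in the sham tumour (median -1.88, range -2.42 to -1.25), and 21 were at least 2-fold higher than in healthy PBS bladder (median 1.79). Mki67, a proliferation marker, had 6.83 log2 on the array labelled 24 h, against 9.25 in the sham tumour and 3.41 in healthy bladder. Nusap1, a spindle protein, and Aurkb, a mitotic kinase, read -2.39 and -2.29 against the sham tumour. The Top2a difference was -2.23, and -1.22 by the mean of its probe sets. On the log2 scale the mitosis genes stood a median of 46.0% of the way from healthy bladder to sham tumour. In linear intensity the 23 genes summed to 1858 on the array labelled 24 h, against 7310 in the sham tumour and 387 in healthy bladder. Of 23 DNA replication genes 20 were lower and 0 higher (median -1.46), and 6 were 2-fold above healthy PBS, with a median log2 place of 33.7%. The sham tumour itself had raised them less over healthy PBS than mitosis genes (medians 2.10 and 3.70), so these figures do not rank the 2 lists. Their linear intensities summed to 2983 on the array labelled 24 h, against 7171 in the sham tumour and 1824 in healthy bladder. Tk1, the thymidine kinase, had 6.42, against 8.56 in the sham tumour and 3.72 in healthy bladder. Cdc45 and Mcm5, parts of the replicative helicase, read -1.81 and -1.96 against the sham tumour.

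Many mitosis genes share promoter elements, so 3 of their upstream stretches are shown, all picked after the motif matches of the list had been seen. These are the 250 bases before the start sites of Mki67 (chr7:135716380-135716629, minus strand), Top2a (chr11:99024190-99024439, minus strand) and Ccnb2, a mitotic cyclin (chr9:70421555-70421804, minus strand), from RefSeq on build GRCm38.p6. Capitals mark matches on either strand to CCAAT (or ATTGG), the letters bound by the factor NF-Y, and to TTTGAA (or TTCAAA), the letters of the cell cycle homology region.
Mki67: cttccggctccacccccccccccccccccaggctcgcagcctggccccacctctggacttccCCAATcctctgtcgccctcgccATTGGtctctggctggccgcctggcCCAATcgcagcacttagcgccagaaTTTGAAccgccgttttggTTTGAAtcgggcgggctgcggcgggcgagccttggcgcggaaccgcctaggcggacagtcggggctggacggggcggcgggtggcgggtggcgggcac
Top2a: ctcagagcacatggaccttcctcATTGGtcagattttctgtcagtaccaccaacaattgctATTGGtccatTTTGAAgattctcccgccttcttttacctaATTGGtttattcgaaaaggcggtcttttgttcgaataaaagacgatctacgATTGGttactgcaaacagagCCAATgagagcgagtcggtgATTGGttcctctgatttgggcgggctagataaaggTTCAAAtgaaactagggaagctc
Ccnb2: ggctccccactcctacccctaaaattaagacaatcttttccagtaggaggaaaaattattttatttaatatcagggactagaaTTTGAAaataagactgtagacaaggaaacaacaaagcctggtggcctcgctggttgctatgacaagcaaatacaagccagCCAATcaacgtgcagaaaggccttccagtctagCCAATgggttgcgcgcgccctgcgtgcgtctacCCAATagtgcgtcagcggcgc
Of 23 mitosis genes 19 had such a stretch, and 8 of them (42.1%) held both motifs, against 6.45% of 27025 genes with a stretch. CCAAT letters were present in 15 of the 19 (78.9%, against 37.5% of all) and the TTTGAA letters in 9 (47.4%, against 18.3%). For DNA replication genes both were present in 2 of 19 (10.5%) and for smooth muscle genes in 1 of 14 (7.14%). A match is a description of the letters and not evidence of binding.

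Genes with the steepest tumour difference were shared at a fraction of the tumour's signal. The 124 genes at least 16-fold higher in the sham tumour of experiment 1 held a median of 21.0% of the sham tumour's linear signal above healthy bladder on the array labelled 24 h. The 18 mitosis genes among them had a median of 19.5%. Prkg2 held 10.9%, and its difference of -3.04 was -1.99 by the mean of its probe sets. Dppa2, a gene of early embryo and germ cells, had 5.08 log2, against 8.15 in the sham tumour and 2.72 in healthy bladder, which was 9.8% of the signal. Tubb3, a beta tubulin best known from neurons, had 5.20, against 8.34 and 2.82. Other germline or embryonic genes, picked for mention after their values were seen, held 9.8% (Hmga2), 10.5% (Piwil4), 12.4% (Xlr) and 28.2% (Rhox5). Gm4836 (4.67 against 8.31 in the sham tumour) and Xlr belong to families of similar copies, so their probe sets may read relatives. Nxf3, an mRNA export factor relative, and Csprs were among the 10 largest decreases, with differences of -3.53 and -3.21. At the other end Sprr2f, a cornified envelope gene, held 321%: it had 7.57 log2, against 6.11 in the sham tumour and 3.85 in healthy bladder, but 7.89 in the sham tumour of experiment 1.

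Xist, the RNA of the inactive X chromosome of female cells, had 10.06 log2 on the array labelled 24 h, against 8.97 in the sham tumour and 10.22 in healthy bladder. The differences from healthy PBS were -0.16 for the array labelled 24 h and -1.25 for the sham tumour. The 3 Y-linked genes measured all lay under the filter level on these arrays.

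**Figure D4:**
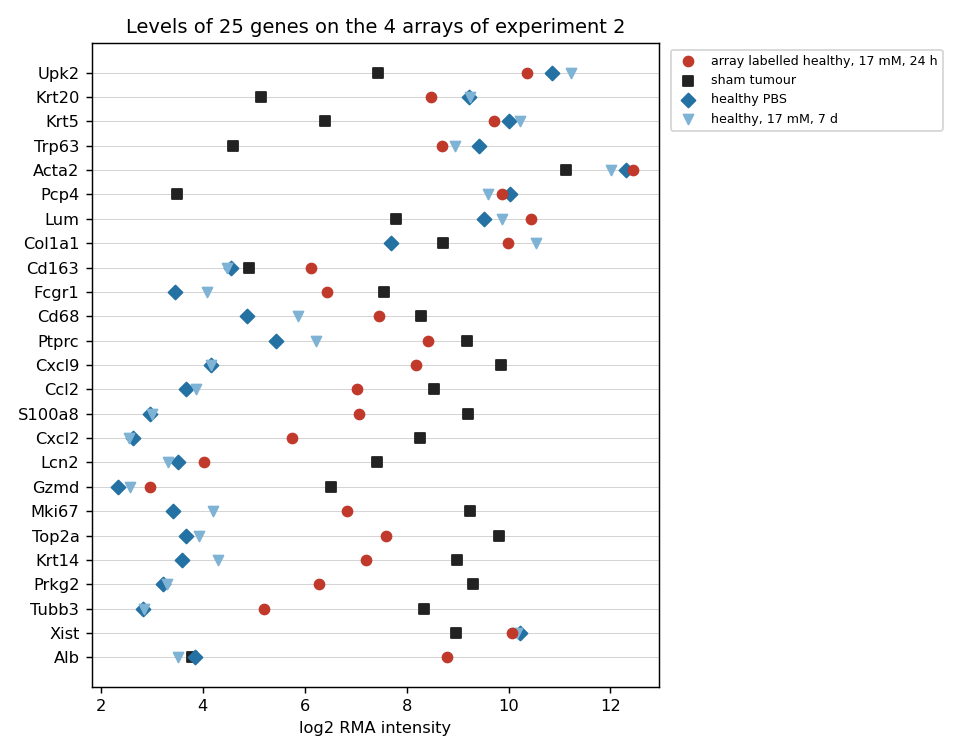
Log2 RMA intensity (horizontal axis) of 25 genes on the 4 arrays of experiment 2, 1 point per array. The array labelled 24 h sits beside healthy PBS for Upk2 to Pcp4 and Xist, and within 2-fold of the sham tumour for Cd68 and Ptprc. It lies between them for Fcgr1, Cxcl9 to Cxcl2 and Mki67 to Tubb3. For Lcn2 and Gzmd it and healthy PBS both read under the filter level, so its place is not given. It lies above both for Lum, Cd163 and Alb, while for Col1a1 the array labelled 7 d is higher still.

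Neutrophil genes and acute cytokines were mixed: 7 of 13 neutrophil genes and 7 of 14 cytokine genes lay within 2-fold of the sham tumour, and the others at least 2-fold below it. The sham tumour itself was 2-fold above healthy PBS for only 9 neutrophil and 9 cytokine genes, so a gene within 2-fold of it need not be a shared tumour feature. Of the tumour-high genes in these lists, 1 neutrophil and 2 cytokine genes were with the sham tumour. S100a8, a subunit of calprotectin, had 7.07 log2 on the array labelled 24 h, against 9.21 in the sham tumour and 2.97 in healthy bladder. Its partner S100a9 had 7.65, against 9.65 and 3.84. Lcn2, an iron-scavenging protein of neutrophils and inflamed epithelium, had 4.03, against 7.42 in the sham tumour and 3.52 in healthy bladder. Its readings on the array labelled 24 h and in healthy bladder lay under the filter level, so how near they are is approximate. The list medians were -0.97 for neutrophil genes and -0.97 for cytokine genes. Cxcl2, a neutrophil attractant, had 5.75, against 8.27 in the sham tumour and 2.62 in healthy bladder, and Cxcl1 had 4.69, against 7.31 and 3.11. Ccl2, a monocyte attractant, had 7.03, against 8.54 and 3.67. Il1b, which encodes the cytokine IL-1 beta, had 6.47, against 7.47 and 4.37. These sizes depended on the setting: against the sham tumour of experiment 1 Il1b read -2.45 and Ccl2 -2.43, with list medians of -1.81 (neutrophil) and -1.78 (cytokine), while the cytokine median was -0.55 by the mean of probe sets and -0.64 without a filter.

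Interferon and antigen presentation genes were shared in part. Cxcl9 and Cxcl10, T cell attractants made under interferon gamma, had 8.19 and 6.34 log2 on the array labelled 24 h, against 9.85 and 8.19 in the sham tumour and 4.15 and 3.08 in healthy bladder. Of 13 interferon-gamma genes 4 were lower (median -0.91, place 55.5%), of 15 antiviral genes 3 (median -0.50), of 11 class I processing genes 5 (median -0.95) and of 10 class II genes 2 (median -0.60), with 0 higher in each. Rsad2, an antiviral enzyme, had 6.12, against 8.17 in the sham tumour and 5.59 in healthy bladder, whereas Ifit3 had 6.12, against 5.68 and 4.92. H2-Aa, a class II chain, had 9.21, against 9.94 and 7.75. Psmb9, an immunoproteasome subunit, read -1.62 against the sham tumour, and H2-Q4, a class I gene with close relatives, -1.79.

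Of 13 T and NK cell genes 2 were lower and 0 higher (median -0.54). Cd3e, a T cell receptor chain, had 5.47 log2, against 5.87 in the sham tumour and 5.31 in healthy bladder. Gzmb, a protease of cytotoxic granules, had 5.92, against 7.26 and 4.55, and read -2.54 against the sham tumour of experiment 1. The granzymes d to g, whose near-identical copies the probe sets may not separate, were too dim to place. Gzmd had 2.96, against 6.52 in the sham tumour and 2.33 in healthy bladder. All 5 measured genes of that group lay under the filter level on the array labelled 24 h and in healthy PBS, against 1 in the sham tumour. The 4 that passed the filter did so through tumour arrays, so their place has no weight of its own. Of the 7 measured B and plasma cell genes 2 lay above the filter, with differences of -0.29 and -0.15. Of 8 mast cell genes 1 was higher, the protease Cpa3 (5.11 against 3.73 in the sham tumour), a share near the 12.4% of all genes.

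Hypoxia and integrated stress response genes that the sham tumour had shifted by 2-fold or more stood a median of 31.1% and 24.6% of the way to it from healthy bladder. Of 18 hypoxia and glycolysis genes 9 were lower and 1 higher than in the sham tumour (median -1), and 2 were 2-fold above healthy PBS. Car9, an acid-base enzyme induced by low oxygen, had 4.30 log2, against 6.41 in the sham tumour and 4.30 in healthy bladder. Adm, the adrenomedullin gene, had 6.22, against 8.18 and 6.02. Hk2, a hexokinase, stayed intermediate with 7.75, against 9.49 and 6.23. Of 14 integrated stress response genes 7 were lower and 1 higher (median -1). Trib3, a stress pseudokinase, had 4.71, against 7.26 in the sham tumour and 4.47 in healthy bladder, and Asns, asparagine synthetase, had 7.77, against 9.79 and 7.43. Psat1, of serine synthesis, had 7.30, against 9.34 and 5.81. Of 14 ERK output genes 6 were lower and 0 higher (median -0.45), and the 7 that the sham tumour had shifted stood at a median of 45.2%. The growth factor Hbegf had 7.36, against 9.63 in the sham tumour and 4.97 in healthy bladder, Fosl1, an AP-1 subunit, had 5.74, against 8.38 and 4.13, and the ERK phosphatase Dusp6 had 8.77, against 10.48 and 7.36. Of 14 chaperone genes 4 were lower (median -0.39), among them Hsp90aa1 at -1.29 and Hspa5 at -1.06. The p53 targets were split, with 5 higher and 3 lower of 15. There Cdkn1a, the cell cycle inhibitor, had 8.10, against 9.31 in the sham tumour and 7.97 in healthy bladder. Erythroid genes had 2 of 3 lower, with Alas2, of haem synthesis, at 5.93 against 8.80 in the sham tumour and 6.08 in healthy bladder.

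Metabolic lists were placed by the genes that the sham tumour had shifted by 2-fold or more, most of them downward. The 10 NRF2 and glutathione genes stood a median of 14.3% of the way to it, the 13 fatty acid genes 26.8% and the 4 sterol synthesis genes 53.2%. Being log2 places of mostly falling genes, these do not rank against the places of lists that rose in the sham tumour. The first 2 of these sets each held 1 gene that was higher in the sham tumour than in healthy bladder. Acaa1b, a peroxisomal thiolase, had 9.37 log2 on the array labelled 24 h, against 4.03 in the sham tumour and 10.05 in healthy bladder. Pdk4, a brake on glucose oxidation, had 7.23, against 3.18 and 7.93. Of 19 fatty acid genes 8 were higher and 1 lower (median 0.97), the lower being Angptl4 (7.54 against 9.04 in the sham tumour and 6.55 in healthy bladder). Of 13 NRF2 and glutathione genes 9 were higher and 1 lower (median 1.54). Nqo1, a quinone reductase, had 7.89, against 3.51 in the sham tumour and 8.58 in healthy bladder, and Gsta4, a glutathione transferase, had 12.15, against 9.20 and 12.37. Fbp1, of gluconeogenesis, Uchl1, a ubiquitin hydrolase, and Cers3, a ceramide synthase, were 4.41, 4.74 and 4.55 higher than in the sham tumour. Of 13 circadian genes 6 were higher and 1 lower, with Dbp, a clock output, at 7.89, against 4.32 in the sham tumour and 8.04 in healthy bladder, and the clock activator Arntl at 5.83, against 7.24 and 5.13. The hour at which bladders were taken is not in the labels. Of 15 glucocorticoid-responsive genes 3 were higher and 5 lower (median -0.46), with Fkbp5 at 7.41, against 8.94 and 6.83. The Fkbp5 difference of -1.53 was -0.89 by the mean of its probe sets. Oxidative phosphorylation genes were near equal (1 higher and 0 lower of 14, median 0.04), as were sterol synthesis genes (1 and 1 of 12, median 0.14), although the sterol median was -0.55 against healthy PBS. Of 8 housekeeping genes 1 differed by 2-fold, the glycolytic Pgk1 (-1.34).

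The array labelled 24 h also carried transcripts that neither the sham tumour nor healthy bladder had at that level. At least 2-fold above both stood 66 genes (0.551%), and 0 stood 2-fold below both. Of 17 fibroblast and collagen genes 6 were among them, and 12 were above the sham tumour (median 1.28 against the sham tumour, 1.22 against healthy PBS). Col1a1, the main fibrillar collagen chain, had 9.99 log2, against 8.71 in the sham tumour and 7.69 in healthy bladder, and 10.54 on the array labelled 7 d. The Col1a1 difference from the sham tumour was 1.28, and 2.24 against that of experiment 1. Lum, a small proteoglycan, had 10.45, against 7.79 and 9.51, and 9.87 on the array labelled 7 d. Mmp2, a gelatinase of fibroblasts, had 9.45, against 7.39 and 7.95, and 9.51 on the array labelled 7 d. Tnc, a matrix glycoprotein of repair, had 8.40, against 7.01 in both others, and 8.14 on the array labelled 7 d. Dkk2, a WNT regulator named after its value was seen, had 6.80, against 3.70 in the sham tumour and 3.62 in healthy bladder, and 6.40 on the array labelled 7 d. Of 12 proteases and inhibitors above the filter 3 were higher and 4 lower than in the sham tumour. The collagenase Mmp13 had 6.24, against 8.62 in the sham tumour and 2.62 in healthy bladder, and the gelatinase Mmp9 had 8.05, against 9.67 and 4.92.

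Liver-type transcripts made up another part of that set. Alb, the serum albumin gene, had 8.80 log2 on the array labelled 24 h, against 3.78 in the sham tumour and 3.85 in healthy bladder, and 3.52 on the array labelled 7 d. Serpina1c and Serpina1b, antitrypsin genes with near-identical copies, were 3.63 and 3.45 higher than in the sham tumour. Of 14 liver genes above the filter 10 were higher and 0 lower (median 2.02), and 7 were above both. The linear intensities of all 19 measured liver genes summed to 3422 on the array labelled 24 h, against 890 in the sham tumour and 2774 in healthy bladder, and 2039 on the array labelled 7 d. The transferrin gene Trf, named after its values were seen, was the highest member on all 4 arrays and sat at its healthy level (10.45 log2, against 8.89 in the sham tumour and 10.73 in healthy bladder). Ttr, the transthyretin gene, also sat near its healthy level, with 8.29, against 4.48 and 8.78. Under the filter level lay 1 of the 19 genes on the array labelled 24 h, against 13 in the sham tumour and 10 in healthy bladder. The part of liver-type RNA in the other results was not tested. Of 7 kidney genes 3 were higher than in the sham tumour, 3 were 2-fold below healthy PBS and 0 above it. The 3 that the sham tumour had shifted stood a median of 55.1% of the way to it. Kap, a kidney androgen-regulated protein, had 7.53, against 6.07 in the sham tumour and 9.32 in healthy bladder, a difference from the sham tumour of 1.46 that was 2.72 by the mean of its probe sets.

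The profile was set beside that of the tumour bladder given 17 mM in experiment 1, which shares no array with it. Across 11969 genes, the array labelled 24 h minus its sham tumour correlated with the 17 mM tumour minus its own sham tumour at r = 0.959 (Spearman 0.932). Relative to the healthy PBS array of each experiment the values were 0.912 (Spearman 0.844). The sham tumours of the 2 experiments themselves differed from healthy bladder alike (0.965), and no baseline for r was computed. Of the list medians against the sham tumour, urothelium read 2.90 on the array labelled 24 h and 2.27 in the 17 mM tumour. In the same order smooth muscle read 2.32 and 2.29, collagen 1.28 and 1.25, liver 2.02 and 2.54, pan-macrophage -0.56 and -0.54, and mitosis -1.88 and -1.67. Some medians lay further apart, such as neutrophil (-0.97 and -1.49) and kidney (0.53 and -0.05). Against healthy PBS mitosis read 1.79 and 2.66, and neutrophil 0.87 and 0.32. Alb had 10.15 log2 in the 17 mM tumour and 4.04 in its sham tumour. Neither difference has a replicate, so the 2 profiles were not tested against each other.

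With the spread borrowed from the PBS groups, a limma fit over all 9 arrays with the experiment as a term called 2035 genes higher (17%) and 1622 lower (13.6%) on the array labelled 24 h at adjusted p under 0.05. Of the 2392 genes past 2-fold 2221 were called. No label says that the PBS arrays are separate animals, so these p-values measure only the spread between arrays, which may be technical. The fit assumes that the lone array varies like the PBS arrays, and without the experiment term it called 1391. Because the calls depend on that term and on a single array, no gene is named from them.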

How the data were processed

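The deposited values are log2 intensities of 45077 probe sets on 9 Affymetrix arrays, made by the authors with RMA and Transcriptome Analysis Console 4.0.1.36, per the submitters' processing notes. The genome build is not given in the sources used here, and no coordinates of the files were used. Between arrays the sorted values differed by 0.022 log2 within an experiment and by 0.329 between the 2 experiments, so levels were compared within an experiment. Same-numbered PBS arrays deviated together (r = 0.647), and the pairing is the experiment number of the labels.

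Probe sets were named by the array annotation, updated by Entrez number (28689 matched): 28898 had 1 gene, 551 several and 15588 none, and 40 control probe sets were left out. The probe set with the highest mean stood for its gene, and dropping the lowest 30% of genes by mean (under 4.16 log2) left 11969 of 17097 for every count. Differences are log2, counted at 2-fold. The limma fit (limma 3.58.1, R 4.3.3, Benjamini-Hochberg) left 1 residual degree of freedom, and was tested on simulated data. Python 3.11.15, numpy 2.4.6, pandas 2.3.3 and matplotlib 3.10.9 did the rest.

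Named genes were the 10 largest differences each way that were at least 2-fold and exceeded the gap between experiments, up to 4 genes of each list in the direction of its median and 2 against it, 32 fixed genes, and, of tumour-high and tumour-low genes, the nearest to and furthest from the sham tumour. The comparison, lists and rule were chosen with earlier results of these data known. Lists share some members. Alternatives were other filters, the mean of probe sets, joint quantile normalization, other fold thresholds, the sham tumour of experiment 1, and the fit without the experiment term or without single PBS arrays.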

Additional observations from a re-analysis of the deposited data

Results flagged for a closer look

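Probe sets with no gene name, or several, entered no comparison. Of these, 4 were at least 4-fold above both the sham tumour and healthy PBS on the array labelled 24 h, a signal in data the comparisons did not use.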

How the results depend on the processing

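With 1 array a side, no spread of the 24 h condition can be had. The differences of the 32 fixed genes kept their sign without a filter, with the lowest 50% left out (30 genes, Lcn2 and Car9 being removed), and under the mean of probe sets, joint quantile normalization and the sham tumour of experiment 1, but Acta2 (0.81 and 0.90), Fkbp5 (-0.89) and Cd163 (0.71) came under 2-fold as given in the report. List medians near 0 changed sign for p53 targets (-0.04 without a filter, -0.13 by the mean of probe sets), mast cell genes (-0.40) and oxidative phosphorylation (-0.02), the last pair against the sham tumour of experiment 1. The hypoxia, stress response and resident-type macrophage medians came under 2-fold against that tumour (-0.68, -0.78 and 0.77), as did erythroid genes (-0.97, and -0.77 without a filter). The granzyme list had no member left with the lowest 50% of genes removed. At 4-fold 691 genes differed, 553 higher and 138 lower. For tumour-high genes the shares with the sham tumour, between and with healthy bladder were 21.8%, 48% and 26.4% with the lowest 50% of genes left out. They were 7.99%, 48.2% and 43.7% against the sham tumour of experiment 1, whose arrays also chose the genes, and 13.8%, 63.1% and 22.8% for 320 genes chosen at 8-fold. Joint quantile normalization put 44% between. For tumour-low genes the shares were 0%, 1.85% and 96.3% with the lowest 50% left out, 0.152% with the sham tumour and 95.4% with healthy bladder against the sham tumour of experiment 1, and 0% with the sham tumour and 8.81% between for 227 genes chosen at 8-fold. Joint quantile normalization put 5.63% between. The causes of these shifts were not tested. The limma fit called 3657 genes with the replicate block, 1391 with no replicate block, and 1008 to 1209 without single PBS arrays of experiment 1 (no block, since none could be fitted). Precision is limited by the number of arrays.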
